A study of Homo sapiens with 6 samples.

Results

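The genes described here are those of the p53-like transcription factors (TP63, TP73), the paired inhibitors of p53 (MDM2, MDM4) and 5 genes that p53 is known to activate when it slows growth (GADD45A, BTG2, ZMAT3, SESN1, TP53INP1). They were chosen by symbol, and all 9 were found by their Ensembl identifiers among the 58825 genes of the deposited table. RNA-seq was performed in SKOV3, a human ovarian cancer cell line, at 48 h of transient transfection. The control group (NC, n = 3 libraries) received a negative control siRNA, and the knockdown group (si-EIF5A2, n = 3 libraries) an siRNA against EIF5A2, which encodes a translation factor. No other agent or genetic change is given for either group. Whether the groups also differed in culture, batch or handling is not stated. The model is limited to 1 cell line and 1 siRNA duplex, and the labels do not state that the libraries of a group came from separate cultures. The study's methods say in general that experiments were repeated, without naming these libraries, so p-values measure only the spread between them, which may be technical.

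p53 is a transcription factor that is stabilized by DNA damage and other stress and then drives genes for cell cycle arrest, DNA repair and apoptosis. MDM2, a ubiquitin ligase, marks p53 for degradation and is itself a p53 target, which closes a negative feedback loop, while its relative MDM4 binds and masks the activation domain of p53. TP63 and TP73 encode paralogs that bind much the same DNA sites, p63 being best known in squamous epithelium. The activity of p53 was not measured here, and the level of a target's RNA is no measure of it.

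Because p53 acts through a DNA element, the promoters of the members were searched for it. RefSeq windows (GRCh38.p14) from 250 bases before to 50 bases after a transcription start are reported for 7 members: TP63, TP73, MDM2, MDM4, BTG2, ZMAT3 and SESN1. No window is shown for GADD45A or TP53INP1. Each window was compared on its own strand with the p53 response element consensus (a pair of decamers with no spacer, each a palindrome, so that both strands are covered), and the best stretch of 20 bases is printed in capitals within up to 20 bases on each side. The sequences shown are those of the 3 members that changed in expression, with SESN1 and TP73 for their close matches.
MDM2, internal start: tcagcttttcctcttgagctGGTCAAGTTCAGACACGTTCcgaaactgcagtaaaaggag
MDM2, upstream start: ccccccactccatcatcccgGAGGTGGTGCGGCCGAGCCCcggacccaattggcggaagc
MDM4: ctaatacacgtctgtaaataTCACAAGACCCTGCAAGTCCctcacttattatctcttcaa
BTG2: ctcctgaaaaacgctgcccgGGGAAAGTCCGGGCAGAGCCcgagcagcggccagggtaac
SESN1: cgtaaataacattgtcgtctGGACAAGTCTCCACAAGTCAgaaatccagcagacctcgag
TP73, internal start: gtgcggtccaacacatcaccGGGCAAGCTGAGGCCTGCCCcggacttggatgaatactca

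The internal promoter of MDM2 (capitals at chr12:68808923-68808942, plus strand) matched 18 of the 20 consensus positions, as did the internal promoter of TP73 (chr1:3690596-3690615, plus strand). Only 0.649% of the 35116 promoter windows held a match this close or closer. This share is per window and not per gene, and MDM2 and TP73 had several windows each. The SESN1 stretch, the closest of its 3 windows (chr6:109009018-109009037, minus strand) matched 17 positions, reached by 5.20% of windows. The BTG2 stretch (chr1:203305505-203305524, plus strand) matched 16 positions, a level that 26.0% of windows reached. The best stretches of TP63 and ZMAT3, not shown, also matched 16 positions. The upstream promoter of MDM2 (chr12:68808063-68808082, plus strand) and the MDM4 promoter (chr1:204516186-204516205, plus strand) matched 15 positions, as 70.5% of windows did. These matches describe letters in a window and not binding, and the counts per gene do not separate transcripts from the different starts of MDM2, TP73 or SESN1.

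The libraries held 46900204 to 74142267 estimated counts, and a sequenced fragment appeared to be worth about 3.76 of them. In CPM, the count of a gene relative to its TMM-scaled library total, EIF5A2 itself ranged from 27.8 to 29.9 in NC and from 2.76 to 4.27 after knockdown, and its log2 fold change was -2.98 (SE 0.18). Of the markers fixed for ovarian carcinoma epithelium, 8 of 9 were expressed, among them ERBB2, KRT8 and PAX8, while MUC16 was at 0 in all libraries. The summed level of the 9 markers was 1508 to 1675 CPM in NC and 958 to 1170 CPM in si-EIF5A2 libraries. By the rule given below, 3 of the 8 tested (KRT7, KRT8 and PAX8) were called lower and 0 higher. The share lower was 37.5%, against 13.6% of all genes tested, from a small count. Markers of leukocytes, fibroblasts and endothelium reached at most 2.04 CPM (PECAM1) in any library, with 3 of the 4 leukocyte markers at 0 throughout. EPCAM, with at most 1.68 CPM, did not exceed that level. The part of these markers in the results below was not tested, and in bulk RNA fewer cells of a type cannot be told apart from less RNA per cell.

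Genes were compared with the quasi-likelihood test of edgeR, adjusted by Benjamini-Hochberg over the 16208 genes tested. A gene is called changed here where the adjusted p is below 0.05 and the fold change exceeds 1.5. By this rule 11.1% of all genes tested were higher and 13.6% lower in si-EIF5A2 libraries. Of the 9 members, 7 passed the filter on low counts. MDM2 and BTG2 rose, MDM4 fell, and GADD45A, ZMAT3, SESN1 and TP53INP1 were not called. Counts of 2 and 1 among 7 genes are too small to be set apart from these shares. The CPM ranges of the groups did not overlap in 5 of the 7 genes (MDM2, MDM4, BTG2, ZMAT3 and SESN1), against 51.2% of all genes tested, which is also no result about these genes as a set. The median log2 fold change was 0.12 over the 7 members and -0.011 over all genes tested.

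**Figure D1:**
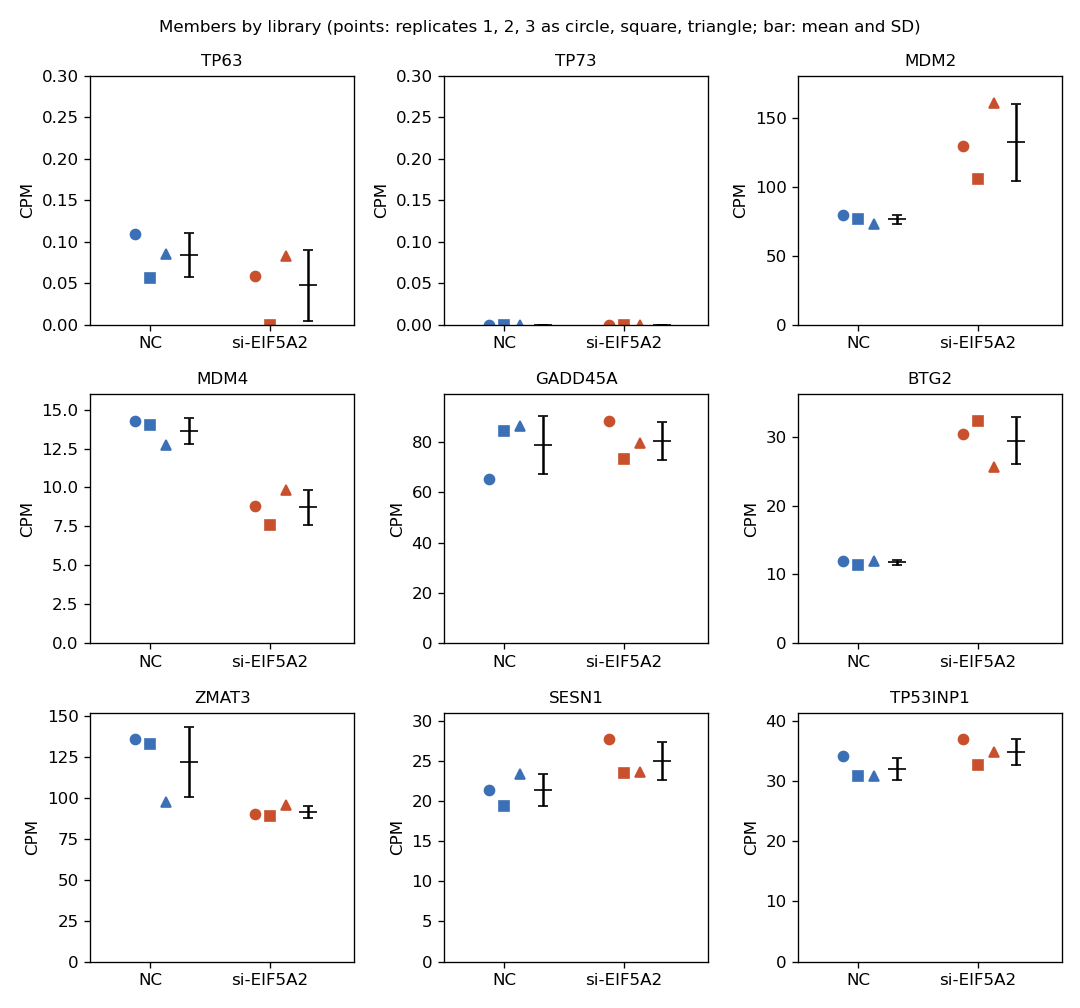
CPM of the 9 members in each of the 6 libraries (vertical axes from 0), with NC in blue and si-EIF5A2 in red, replicates 1 to 3 as circle, square and triangle, and bars for mean and SD. BTG2 and MDM2 are higher and MDM4 lower in every si-EIF5A2 library, whereas GADD45A and TP53INP1 overlap and TP63 and TP73 lie at or near 0.

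The genes of the family transcription factors TP63 and TP73 were at or near 0. TP63, which encodes p63 and lies on chromosome 3 from 189631416 to 189897279 (GRCh38), had 8, 4 and 4 counts in NC and 3, 0 and 4 counts in si-EIF5A2 libraries. TP73, on chromosome 1 from 3652520 to 3736201, had 0 counts in all 6 libraries. All these values lie at or under the limit that a count of 0 allows, which is 3 fragments or 0.152 to 0.241 CPM, so no fold change is given for either gene. Such limits cover counting error only. A change in TP63 or TP73 was not detectable at this depth.

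A list of 24 genes of squamous epithelium, many of them known to depend on p63, was read beside TP63. The keratins KRT5, KRT6A, KRT6B and KRT14 were at 0 in all libraries, as were 4 other listed genes. Of the 13 genes tested, 5 were called higher and 1 lower, 38.5% and 7.69% against 11.1% and 13.6% of all genes. These counts are small, were not rerun with other settings, and come from a list chosen with earlier results of these data known. Whether the list changed as a set was not tested. The largest rises were in PERP, a junction protein gene that p53 also activates (52.9 ± 2.16 to 189 ± 11.9 CPM, SD, n = 3 each), DSC3 (0.706 ± 0.360 to 1.83 ± 0.200 CPM), KRT15 (7.03 ± 0.211 to 16.2 ± 2.60 CPM) and TFAP2C (8.29 ± 0.383 to 16.1 ± 0.615 CPM). DSC3 in NC replicate 3 (0.319 CPM) was near the limit of 3 fragments in that library (0.2405 CPM). COL17A1, a hemidesmosome collagen gene, fell by 1.21 on the log2 scale.

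MDM2, on chromosome 12 from 68808176 to 68850686, had 79.5, 76.8 and 73.0 CPM in NC replicates 1 to 3 and 130, 105 and 161 CPM in si-EIF5A2 replicates 1 to 3. All si-EIF5A2 libraries were higher than all NC libraries, and they spread more among themselves. MDM2 rose 1.73-fold, a log2 fold change of 0.79 (SE 0.15, 95% interval 0.45 to 1.13, edgeR adjusted p = 0.00413). Leaving out any 1 library gave 0.62 to 0.93, and the call held. On the same strand, MDM2 shares 439 exon bases with the pseudogene AC025423.2, to which only 9 to 18 counts per library were assigned. Exons of MDM2, TP73 and SESN1 also overlap genes on the opposite strand, and whether counting used strand is not given in the sources used here.

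MDM4, on chromosome 1 from 204516379 to 204558120, went the other way. It had 14.3, 14.0 and 12.7 CPM in NC and 8.78, 7.57 and 9.84 CPM in si-EIF5A2 libraries, again with no overlap. MDM4 fell by 0.65 on the log2 scale (SE 0.14, 95% interval -0.97 to -0.32, edgeR adjusted p = 0.00788), to 64.0% of the NC level. This call rested on si-EIF5A2 replicate 2, the lowest library: without it the log2 fold change was -0.55, inside the limit of 1.5-fold, with an adjusted p of 0.0235 from the same edgeR test (range over the alternatives 0.00135 to 0.0298).

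The balance of the inhibitors was read within each library, where library size has no part. Per kilobase of exon, MDM4 counts were 0.217, 0.220 and 0.210 of MDM2 counts in NC replicates 1 to 3 and 0.0816, 0.0866 and 0.0737 in si-EIF5A2 replicates 1 to 3. MDM4 was thus the scarcer transcript in all libraries, and its ratio to MDM2 was 2.68-fold lower after knockdown (log2 difference -1.42). The groups did not overlap (exact permutation test, 2-sided, p = 0.10, the smallest that 3 against 3 libraries allow). Because MDM2 and MDM4 had each separated the groups in opposite directions, their ratio had to do so too. The test therefore adds no evidence to the values of the 2 genes.

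BTG2, an antiproliferative gene whose product binds the CCR4-NOT deadenylase, lies on chromosome 1 from 203305491 to 203309602. It had 12.0, 11.3 and 12.0 CPM in NC and 30.4, 32.3 and 25.6 CPM in si-EIF5A2 libraries. The NC libraries differed little from each other, and the lowest si-EIF5A2 library was far above all of them. BTG2 rose 2.50-fold, a log2 fold change of 1.32 (SE 0.12, 95% interval 1.05 to 1.60, edgeR adjusted p = 1.01e-04), the largest change of the 7 members tested. Leaving out any 1 library gave 1.25 to 1.41.

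GADD45A, a stress sensor gene whose product inhibits CDK1 and activates p38 and JNK signaling, lies on chromosome 1 from 67685061 to 67688338. It had 65.5, 84.3 and 86.5 CPM in NC and 88.3, 73.4 and 79.6 CPM in si-EIF5A2 libraries, so the groups overlapped over most of their range. The log2 fold change was 0.03 (95% interval -0.26 to 0.32, edgeR adjusted p = 0.88), and its sign turned when NC replicate 1 (-0.088) or si-EIF5A2 replicate 1 (-0.049) was left out. The interval leaves out a change of 1.5-fold in either direction.

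ZMAT3, a zinc finger gene whose product binds RNA and acts in splicing and transcript stability, lies on chromosome 3 from 179017223 to 179072279. It had 136, 133 and 97.6 CPM in NC and 89.9, 88.9 and 95.6 CPM in si-EIF5A2 libraries. NC replicate 3 was close to the si-EIF5A2 libraries, which were tight. The log2 fold change was -0.42 (SE 0.13, 95% interval -0.71 to -0.12), whose edgeR adjusted p of 0.035 was under 0.05, but whose size missed the limit of 1.5-fold. Over the alternatives its adjusted p ran from 0.00214 to 0.115, and with a library left out its value ran from -0.56 to -0.33.

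SESN1, one of the sestrins that restrain mTORC1 signaling and oxidative stress, lies on chromosome 6 from 108986437 to 109094819. It had 21.4, 19.4 and 23.3 CPM in NC and 27.7, 23.5 and 23.6 CPM in si-EIF5A2 libraries. The groups did not overlap, though the highest NC library and the lowest si-EIF5A2 library nearly touched. The log2 fold change was 0.22 (95% interval -0.045 to 0.49, edgeR adjusted p = 0.177).

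TP53INP1, whose product promotes autophagy and the activity of p53 and p73, lies on chromosome 8 from 94925972 to 94949411. It had 34.2, 30.9 and 30.9 CPM in NC and 36.9, 32.7 and 34.8 CPM in si-EIF5A2 libraries, which overlapped. The log2 fold change was 0.12 (95% interval -0.094 to 0.34, edgeR adjusted p = 0.362). For SESN1 and TP53INP1 alike, the intervals exclude a rise of 1.5-fold and include 0.

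**Figure D2:**
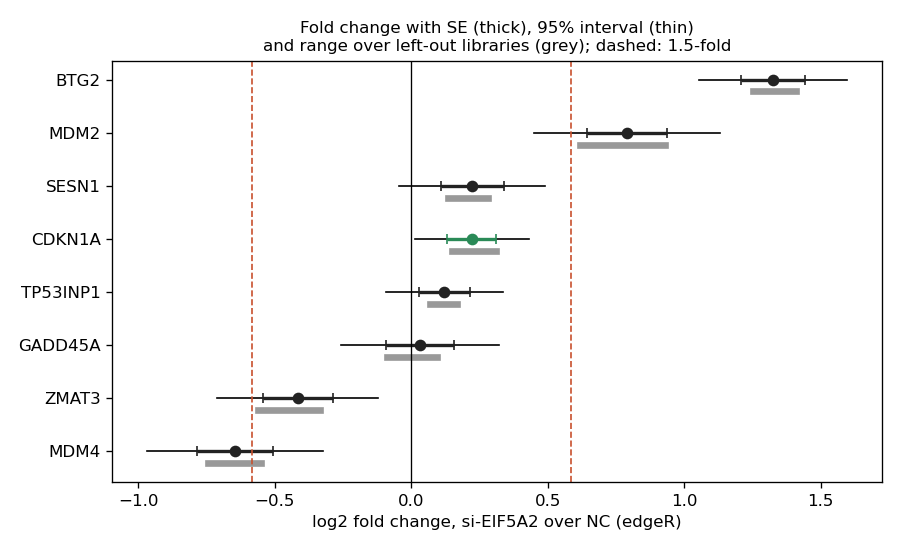
Log2 fold change of the 7 members tested (black) and of CDKN1A (green), si-EIF5A2 over NC, with SE (thick), 95% interval (thin), the range with 1 library left out (grey) and the 1.5-fold limit (dashed). BTG2 at 1.32 lies far outside the limit, MDM2 and MDM4 lie just beyond it, and GADD45A sits at 0.03.

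Levels of different genes were compared as CPM per kilobase of exon. In NC libraries the order was GADD45A (38.1 ± 5.60, SD, n = 3), ZMAT3 (12.7 ± 2.20), MDM2 (5.75 ± 0.243), TP53INP1 (5.64 ± 0.329), BTG2 (4.27 ± 0.135), SESN1 (4.17 ± 0.384) and MDM4 (1.24 ± 0.0760), with TP63 and TP73 at the bottom. The ranges of MDM2 and TP53INP1 overlapped, as did those of BTG2 and SESN1, while the other neighbours were apart. In si-EIF5A2 libraries BTG2 (10.7 ± 1.25) stood second, and its range overlapped that of MDM2 (9.95 ± 2.10), which overlapped that of ZMAT3 (9.48 ± 0.378). GADD45A stayed at the top with 38.9 ± 3.62 and MDM4 stayed lowest of the tested members with 0.793 ± 0.103.

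**Figure D3:**
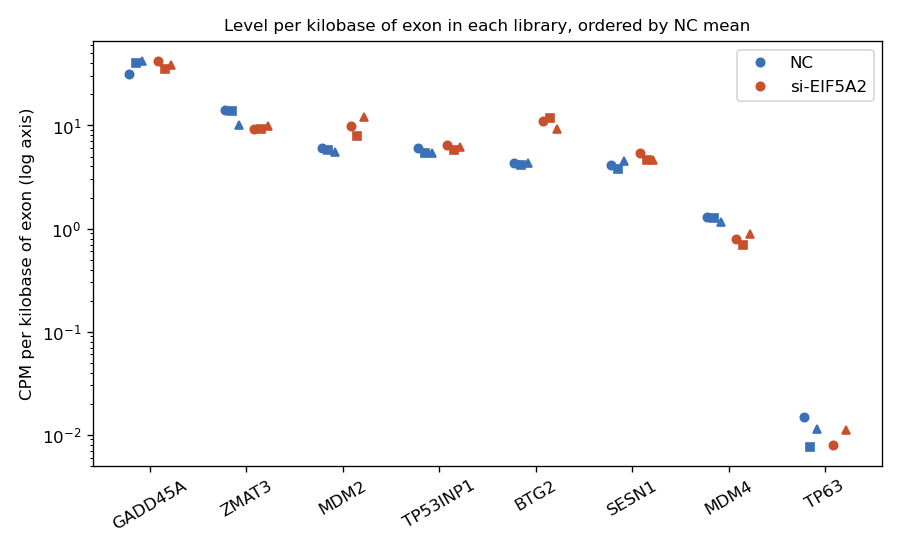
CPM per kilobase of exon (log axis) of 8 members in each library, NC in blue and si-EIF5A2 in red, with replicates 1 to 3 as circle, square and triangle. TP73 is at 0 in all libraries and is not drawn, nor is TP63 in the si-EIF5A2 library where it is 0. BTG2 moves from 4.27 to 10.7 on average, where its range overlaps that of ZMAT3, while GADD45A stays near 38.

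The wider set of p53 targets was read from a list of 94 genes, 7 of which are members described above. The list was written from general knowledge but with earlier results of these data known, so its shares are no independent test. Of the 87 genes tested, 27 were called higher (31.0%, against 11.1% of all genes) and 11 lower (12.6%, against 13.6%). Without the members, 25 of 81 were higher and 11 lower. The median log2 fold change was 0.22 with and without the members, and 54 of the 87 genes had a value above 0. CDKN1A, the p21 gene and the best known arrest target of p53, had 986, 850 and 799 CPM in NC and 1009, 1068 and 993 CPM in si-EIF5A2 libraries, and its log2 fold change of 0.22 was not called (95% interval 0.012 to 0.43, edgeR adjusted p = 0.0938).

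The largest rises besides BTG2 were in BBC3, TNFRSF10B and SLC12A4. BBC3, which encodes the BH3-only protein PUMA, rose from 16.9 ± 2.05 to 41.6 ± 3.47 CPM (SD, n = 3 each). TNFRSF10B, which encodes the TRAIL receptor DR5, rose from 345 ± 3.03 to 772 ± 28.0 CPM. SLC12A4, a potassium-chloride cotransporter gene, rose most, from 16.8 ± 0.557 to 50.8 ± 3.71 CPM, and shares 336 exon bases with LCAT on the same strand. The largest falls were in SYTL1 (4.85 ± 0.867 to 0.586 ± 0.401 CPM), NYNRIN (6.28 ± 0.432 to 0.883 ± 0.254 CPM), LAPTM5, a lysosomal membrane protein gene (98.6 ± 2.79 to 32.2 ± 0.673 CPM), and NOTCH1 (59.3 ± 4.74 to 28.4 ± 3.09 CPM). In si-EIF5A2 replicate 1, SYTL1 had 0.176 CPM, under the limit of 3 fragments in that library (0.223 CPM), so the size of its fall is uncertain. The share of targets called lower was near that of all genes.

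**Figure D4:**
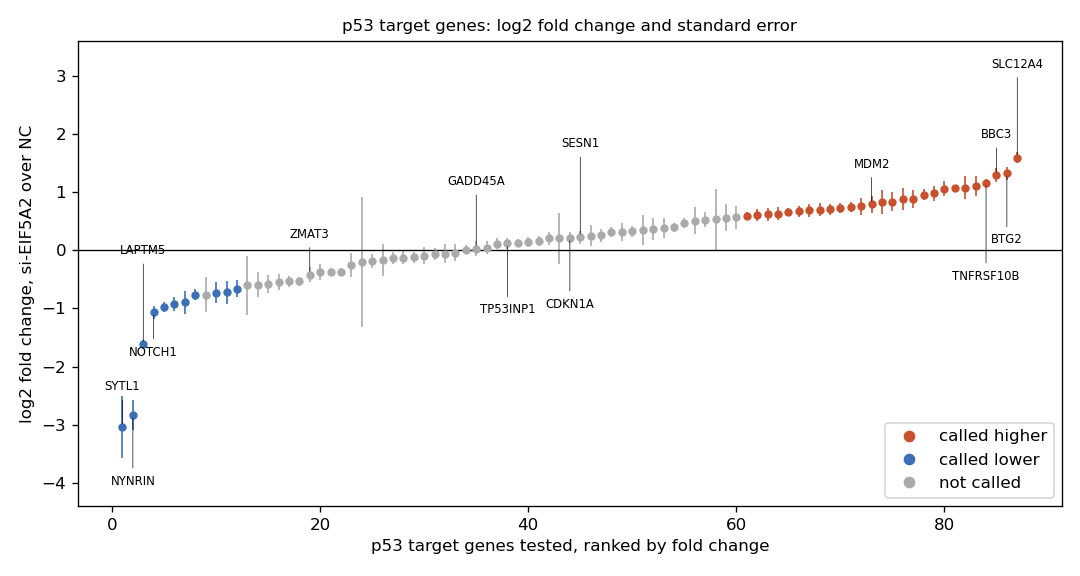
Log2 fold change with SE of the 87 p53 target genes tested, ranked from lowest to highest, with genes called higher in red (27), called lower in blue (11) and not called in grey. Members, CDKN1A and the largest changes are named, and BTG2 lies second from the top at 1.32.

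Genes that control the p53 protein were read from a list of 37 genes, of which 36 were tested. Of these, 2 (5.56%) were called higher and 6 (16.7%) lower, against 11.1% and 13.6% of all genes, and the median log2 fold change was -0.024. CHEK2 and CHEK1, checkpoint kinase genes whose products phosphorylate p53, fell from 13.1 ± 2.77 to 3.81 ± 0.867 CPM and from 13.3 ± 2.70 to 4.50 ± 0.437 CPM (SD, n = 3 each). CHEK1 shares 80 exon bases on the same strand with STT3A, which held 10676 to 15762 counts per library. MTBP, which encodes an MDM2-binding protein, fell from 11.4 ± 0.875 to 4.75 ± 0.657 CPM, and SIRT1, a deacetylase gene, fell from 18.8 ± 1.48 to 8.05 ± 0.874 CPM. SETD7, a lysine methyltransferase gene, rose from 29.9 ± 3.05 to 74.9 ± 3.11 CPM, and ATM, the kinase gene at the head of the damage response, rose from 8.63 ± 0.239 to 13.2 ± 1.82 CPM. The rise of ATM was 1.53-fold, just over the limit of 1.5-fold. Leaving out NC replicate 1 brought the number called higher to 4, and leaving out si-EIF5A2 replicate 3 brought it to 1. CDKN2A, which also encodes the MDM2 inhibitor ARF, had at most 0.0782 CPM in a library. On the opposite strand, CHEK2 shares 301 exon bases with HSCB, which held 353 to 739 counts per library. Likewise MTBP shares 297 with SNTB1 (270 to 1539 counts) and ATM 143 with NPAT (383 to 686 counts). Whether counting used strand is not given in the sources used here.

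The members' own paralogs were read from a list of their families. In the BTG and TOB family, which shares the antiproliferative domain of BTG2, 4 of 5 genes were tested and all 4 had a log2 fold change above 0. TOB2 (81.9 ± 3.52 to 137 ± 1.01 CPM) and TOB1 (25.7 ± 0.973 to 39.5 ± 5.22 CPM, SD, n = 3 each) rose. The rise of TOB1 was 1.535-fold, just over the limit of 1.5-fold. BTG1 had a log2 fold change of 0.42 (edgeR adjusted p = 0.0015), under that limit, and BTG3 had 0.34 (edgeR adjusted p = 0.132). BTG4 was at 0. GADD45B averaged 56.0 ± 17.4 CPM in NC against 30.6 ± 8.25 CPM after knockdown, and was not called (edgeR adjusted p = 0.0771). The sestrins SESN2 (0.13) and SESN3 (0.12) were not called either, like SESN1. TP53INP2, the paralog of TP53INP1, fell from 23.0 ± 1.42 to 12.2 ± 0.632 CPM, a log2 fold change of -0.92. Over the whole list of 14 paralogs, 11 were tested, 2 were called higher (18.2%) and 1 lower (9.09%), against 11.1% and 13.6% of all genes, and counts this small cannot be set apart from those shares. The number higher was 1 when si-EIF5A2 replicate 1 was left out, and the number lower was 2 when NC replicate 2 was left out.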

How the data were processed

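RNA was measured by mRNA-seq in SKOV3 cells (NC and si-EIF5A2, 3 libraries each). The authors deposited estimated counts, whole and not normalized, per gene. Their methods name StringTie and ballgown for expression levels as FPKM, and how the counts were made is not given in the sources used here. The aligner and human build are not given in the sources used here: the submitters' processing notes name Bowtie 0.12.2 with mm8 and mm9, whereas the identifiers are human Ensembl genes. Symbols, positions and exon lengths came from GENCODE release 29 (GRCh38), promoters from RefSeq. Small counts cluster near multiples of 3.76.

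Libraries were grouped by title. edgeR 4.0.16 (R 4.3.3) was run on all genes, with filterByExpr, TMM scaling, a robust quasi-likelihood fit with condition as the only term, and Benjamini-Hochberg adjustment. SE is the log2 fold change over the square root of F. CPM use TMM library sizes, and exon length is the union of exons. The ratio of MDM4 to MDM2 was tested by exact permutation. Steps were tested on simulated data. Genes named are the 9 members, EIF5A2, CDKN1A and, per list, up to 4 called rises and 4 falls with a mean of at least 1 CPM. KRT5, KRT6A, KRT6B, KRT14, CDKN2A, other paralogs, markers and overlapping genes were named after their values were seen. One gene that the rule names is not reported here and was left out of the lists. The members and lists were chosen with earlier results of these data known.

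Alternatives were RLE, upper-quartile and library-size scaling, DESeq2 1.42.0, no filter, at least 10 counts in every library, a replicate block, counts divided by their step, other thresholds and leaving out each library.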

Additional observations from a re-analysis of the deposited data

How the results depend on the processing

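MDM2, BTG2, ZMAT3, SESN1 and TP53INP1 kept direction and call in every fit run (3 other scalings, DESeq2, 2 other filters, the replicate block, counts divided by their step and 6 left-out libraries). Among these fits MDM4 lost its call only without si-EIF5A2 replicate 2, and its log2 fold change ran from -0.75 to -0.55 over the left-out libraries. GADD45A, never called, ran from -0.088 to 0.095. Deviations of same-numbered libraries correlated with r from -0.024 to 0.0052, and no library correlated best with its own number. With 3 libraries in each group this check cannot settle whether they were paired, and the labels give only the number. The replicate block gave 1681 genes higher and 2050 lower, against 1792 and 2200 without it, with 2 members higher and 1 lower as before. With the methods' threshold (unadjusted p under 0.05, fold change over 2), 872 of the 16208 genes tested were higher and 1498 lower. Of the 7 members 1 (BTG2) was higher and 0 lower, so neither MDM2 nor MDM4 was called at that threshold. Of the 87 targets 8 were higher and 4 lower. Of the 36 regulators 1 was higher and 4 lower, and of the 11 paralogs 0 were higher and 0 lower. With no limit on the fold change, 2911 of the 16208 genes were higher and 3063 lower. Of the 7 members 2 were higher and 2 lower, of the 87 targets 32 were higher and 18 lower, and of the 36 regulators 7 were higher and 12 lower. With no filter on low counts, 1 regulator was higher, and with DESeq2 2 paralogs were lower. Over left-out libraries, the number of members lower ran from 0 to 1, regulators higher from 1 to 4, paralogs higher from 1 to 2 and paralogs lower from 1 to 2. The cause was not tested. Depth limits TP63 and TP73, whose counts lie under 3 fragments in every library, and no fold change is given for them under any alternative.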
